A study of Mus musculus with 241 samples.

Results

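The cells described here are CD25-stage thymocytes without detected Bcl11b RNA that hold RNA of the signalling adaptors Fcer1g and Tyrobp. They were chosen in the 2 droplet (10x) libraries from barcodes that held 1000 genes or more and less than 10% of their UMIs in mitochondrial genes (a UMI, or unique molecular identifier, counts a captured RNA molecule). A member had at least 1 UMI of Il2ra, the gene of surface CD25, 0 UMIs of Bcl11b, under 3 UMIs of Cd3d, Cd3e and Cd3g together, and at least 2 UMIs of Fcer1g and Tyrobp together. The rule found 1288 cells in library 1 and 1642 in library 2, which is 2930 of 13312 kept cells. They were the majority at their stage. Of the 1426 and 2030 kept cells with Il2ra, without Bcl11b and under the Cd3 limit, 90.3% (exact binomial 95% interval 88.7 to 91.8) and 80.9% (79.1 to 82.6) were members. A further 298 cells held a single adaptor UMI, 81 of them in library 1, and 228 held none, 57 of them in library 1. The latter, called adaptor-0 cells below, were the cells of comparison. The intervals cover counting error only.

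FcRγ, the product of Fcer1g, and DAP12, the product of Tyrobp, are small membrane proteins without ligand-binding domains of their own. They pair with activating receptors of mast cells, myeloid cells and natural killer cells. Each carries an immunoreceptor tyrosine-based activation motif (ITAM), a pair of tyrosines that Src-family kinases phosphorylate and that then recruits Syk or Zap70. The CD3 chains of the T-cell receptor carry the same kind of motif. In the thymus, early progenitors without CD25 are followed by DN2a cells, which gain CD25, and Bcl11b comes on as cells commit to the T lineage.

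The coding sequences of these motifs are shown because the rule contrasts adaptors and CD3 chains that share them. They were read from the reference genome GRCm38 with GENCODE M21 gene models, 5′ to 3′ on the coding strand, with the codons of the 2 tyrosines in capitals.
Fcer1g: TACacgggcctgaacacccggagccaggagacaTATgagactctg
Tyrobp: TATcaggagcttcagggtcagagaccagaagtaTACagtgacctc
Cd3e: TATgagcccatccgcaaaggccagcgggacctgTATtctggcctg
The Fcer1g stretch encodes residues 65 to 79 of 86 and spans exons 4 and 5 at chr1:171229889-171230072 on the minus strand. The Tyrobp stretch encodes a motif that starts at residue 92 and spans exons 4 and 5 at chr7:30415670-30417382 on the plus strand. In Cd3e the stretch spans exons 7 and 8 at chr9:44999549-45000440 on the minus strand. In all 3 stretches 7 residues lie between both parts of the motif, and an intron lies within the coding stretch. The gene of Ccl5 lies at chr11:83525778-83530518 and that of Ccl9 at chr11:83572919-83578636, both on the minus strand. Fgf3 lies at chr7:144838083-144844436 on the plus strand.

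The 10x libraries came from the thymus of untreated wild-type C57BL/6 mice, sorted as lineage-negative, viable, CD44+ Kit+ cells. Bulk RNA of sorted populations came from Bcl11b yfp/yfp mice, whose Bcl11b alleles carry a yellow fluorescent reporter. These were Flt3+ ETP, Flt3- ETP and total ETP (early T-cell progenitors, without CD25; 2 libraries each), and CD25+ DN2a cells that were reporter-negative or reporter-positive (Bcl11b- DN2a and Bcl11b+ DN2a; 3 libraries each). Further single cells were captured on the C1 chip, with no animal named, and count as 1 sample. No age is given. The labels tie no library to an animal of its own, so the spread behind each p-value can be technical. The 10x libraries held 5006 and 8867 barcodes and 43734920 and 55522900 UMIs. Of these barcodes 4878 and 8434 were kept, 55 barcode sequences occurred in both libraries, and 1 of them belonged to a member in both.

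Members carried RNA of CD25-stage T progenitors, and many but not all defining genes of mature cells that use these adaptors were at 0. Values are CPM (counts of the summed cells, scaled to the same total), given as library 1 and library 2. Kit, the gated growth factor receptor, stood at 119.3 and 132.2 CPM, Cd44 at 49.5 and 50.9, the T-lineage factor Tcf7 at 216.9 and 246, and Il7r, a cytokine receptor gene, at 38.8 and 44.8. The neutrophil genes S100a9, Ngp and Camp had 0 UMIs in both libraries, as did Prss34 of basophils, Siglech of plasmacytoid dendritic cells, C1qa, C1qb and C1qc of macrophages, and Ncr1 and Eomes of natural killer cells. A count of 0 in the 1288 and 1642 cells allows up to 3 UMIs. The mast-cell receptor chains Fcer1a and Ms4a2, which pair with FcRγ at the cell surface, also had 0 UMIs. Other genes of the same lists were present. Ltf, a neutrophil granule gene, had 14 and 22 UMIs, S100a8 had 3 and 0, and the natural killer gene Klrb1c had 2 and 3. Elane, a neutrophil protease gene, stood at 14.9 CPM in library 1 and at 0.26 CPM in library 2. Cox6a2, a gene of plasmacytoid dendritic cells, was detected in 11.1% and 10.5% of members. Cpa3, a mast-cell protease gene also known in early progenitors, was detected in 68.5% and 57.4% of members. The basophil protease gene Mcpt8 was detected in 4.97% and 4.08%. At least 3 UMIs of other-lineage markers occurred in 20 members of each library, which is 1.55% and 1.22%.

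Among the members, adaptor RNA ranged from the threshold of 2 UMIs to 22 and 26 UMIs per cell, with a median of 5 in both libraries. In library 2, 268 members held exactly 2 adaptor UMIs, just inside the threshold. The level of the named genes at 1 and 2 UMIs is shown in the plot of gene levels by adaptor UMIs. Both adaptors were detected in 51.8% and 47.3% of members, Tyrobp without Fcer1g in 46.2% and 50.1%, and Fcer1g without Tyrobp in 2.02% and 2.62%. Il2ra rested on a single UMI in 35.4% and 40.9% of members. No Cd3 UMI was found in 94.5% and 95.4%. Median depth was 8513.5 and 6588 UMIs in members and 8084 and 6131 UMIs in adaptor-0 cells. The median share of mitochondrial UMIs was 3.77% and 4.26% in members and 3.67% and 4.31% in adaptor-0 cells.

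The adaptors followed different courses over the stages, which is described here without a test because they chose the cells. Among cells under the Cd3 limit, Tyrobp was 439 and 464 CPM without Il2ra or Bcl11b, 518 and 518 CPM in all Il2ra-positive cells without Bcl11b, and 247 and 220.99 CPM once Bcl11b was detected. Fcer1g was 56 and 62.4, then 104.5 and 108.2, then 129.2 and 111.7 CPM. Thus Tyrobp was lower in the Bcl11b-positive cells of both libraries and Fcer1g was not. In Bcl11b-positive cells with at least 3 Cd3 UMIs, Tyrobp stood at 35.4 and 74 CPM and Fcer1g at 15.8 and 20.3 CPM. Depth differs between these stages, so each cell was also thinned to 4000 UMIs, leaving out shallower cells (1270 and 1497 members remained, 54 adaptor-0 cells in library 1, and all but 36 adaptor-0 cells in library 2). The stages were then called again on the thinned counts, so these groups hold partly other cells than before. At least 2 adaptor UMIs were found in 53.7% and 50.5% of cells without Il2ra or Bcl11b, in 66.5% and 61.1% of Il2ra-positive cells without Bcl11b, and in 34.7% and 31.5% of Bcl11b-positive cells. Without thinning these shares were 78.1% and 67.5%, 90.3% and 80.9%, and 68.1% and 52.5%.

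Ccl5, Ccl9 and Fgf3 had been picked as markers of these cells from these data, and so they too are described without a test. Ccl5 and Ccl9 encode chemokines, which attract other leukocytes, and Fgf3 encodes a secreted fibroblast growth factor. Ccl5 was 75.9 and 117.6 CPM in members and 33.8 and 41 CPM in adaptor-0 cells. Ccl9 was 24.7 and 19.5 CPM in members and 4.23 and 8.21 CPM in adaptor-0 cells, the former from 2 UMIs. Both chemokine genes were higher in members in each library. Fgf3 was 70.2 and 82.8 CPM in members and 50.7 and 78.4 CPM in adaptor-0 cells, values that lie close together in library 2. After thinning, Ccl5 was detected in 18.1% and 21.7% of members and in 14.8% and 13.3% of adaptor-0 cells. In Bcl11b-positive cells with at least 3 Cd3 UMIs the thinned share was 0.901% and 4.17%. The unthinned median depth of those cells was 5033 and 4057 UMIs. These values do not set members against adaptor-positive cells of the neighbouring stages. They do not show that the markers are particular to members, and in bulk RNA, given below, Fgf3 was high in both DN2a populations.

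**Figure D1:**
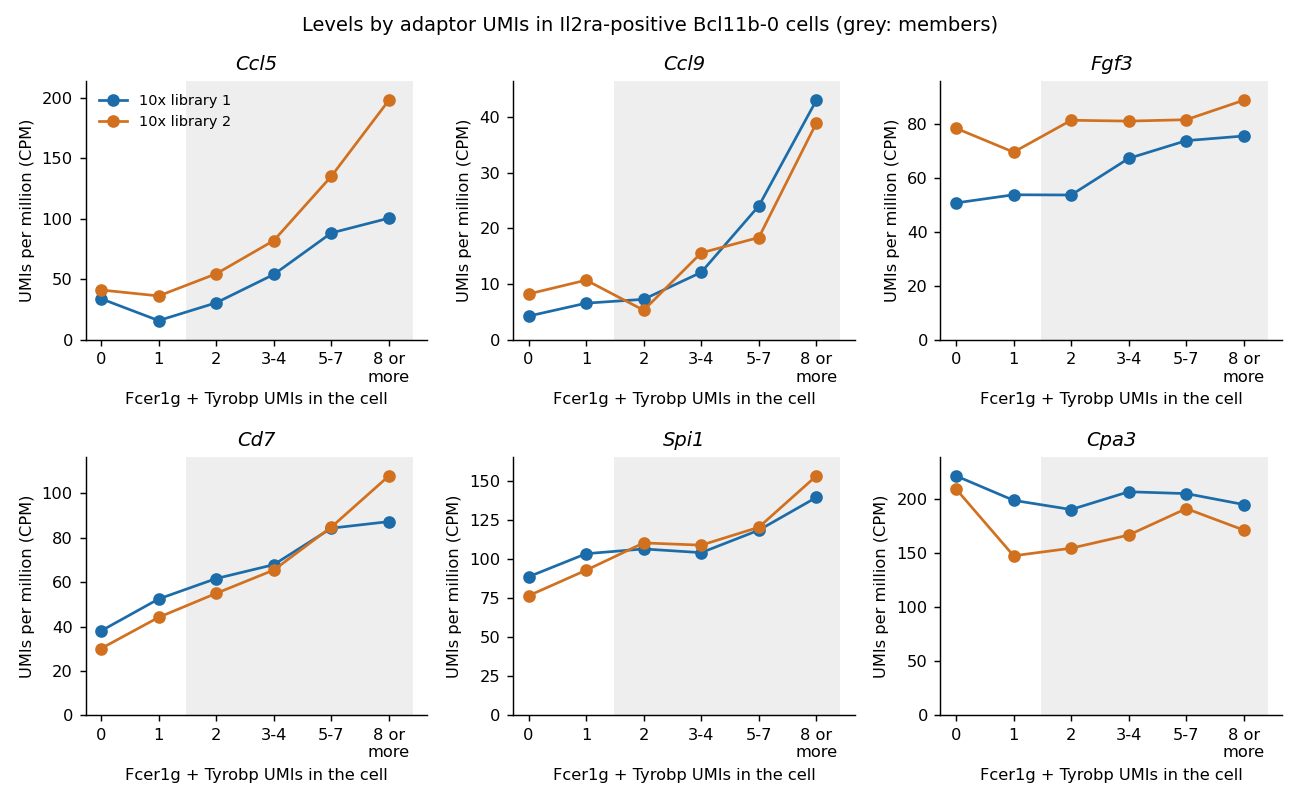
Levels of 6 genes (CPM of summed cells, linear axes from 0) in Il2ra-positive cells without Bcl11b, grouped by the number of Fcer1g and Tyrobp UMIs per cell, with 1 line per library and members on the grey ground. Ccl5, Ccl9, Cd7 and Spi1 were higher in cells with at least 8 adaptor UMIs than in cells with none in both libraries, whereas Cpa3 was lower.

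The level of these genes varied with the number of adaptor UMIs among the members themselves. Ccl5 was 30.5 and 54.4 CPM in cells with exactly 2 adaptor UMIs and 100.5 and 198.04 CPM in those with at least 8. Ccl9 was 7.25 and 5.29 CPM at 2 UMIs and 43.1 and 39 CPM at 8 or more. Cd7, which encodes a surface protein of T and natural killer cells and their progenitors, went from 61.6 and 55 to 87.3 and 107.9 CPM. Fgf3 went from 53.7 and 81.4 to 75.5 and 88.8 CPM. In library 2 Fgf3 therefore stayed near one level while Ccl5, Ccl9 and Cd7 differed over the same cells.

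Members and adaptor-0 cells were then compared across all genes. The question was what else differs between cells with and without adaptor RNA at a stage called only by Il2ra, Bcl11b and Cd3 UMIs. UMIs were summed per library for these cells and for cells of the neighbouring stages with and without adaptor RNA, giving 12 sums of 473231 to 16018637 UMIs. They were fitted in edgeR with the library as a block. The block takes out the overall difference between the libraries. The p-values thus rest on how differences between groups of cells vary from library to library, with 5 residual degrees of freedom. edgeR also pools this spread over genes, with a median of 56.4 prior degrees of freedom. Members held more RNA of Cd7, Mpo and Spi1 and less RNA of histone genes and of Mki67. Of 7121 genes tested, 2.44% passed a Benjamini-Hochberg adjusted p under 0.05, 76 higher (1.07%) and 98 lower (1.38%) in members. The share called was 2.21% without adaptor-0 library 1 and 0.295% without adaptor-0 library 2, and 0.954% or 1.29% without the members of library 1 or 2, where the missing group is assumed to vary like the others. It was 1.21% in DESeq2, 13.1% when cells were thinned to 4000 UMIs before the rule chose them, and 10.1% when cells with 3 or more Cd3 UMIs stayed among the adaptor-0 cells. Without the library block 2 genes were called (0.0281%). The 2 libraries, and not the cells, are the replicates.

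Cd7 was 78.2 and 78.4 CPM in members and 38 and 30.1 CPM in adaptor-0 cells. Its levels in members and adaptor-0 cells did not overlap, and the difference was 1.31 ± 0.19 on the log2 scale (± SE; edgeR adjusted p = 1.08e-06). Mpo, the gene of myeloperoxidase, was 135.7 and 125.1 CPM against 93 and 78.4 CPM, a difference of 0.67 ± 0.13 (edgeR adjusted p = 0.00122). Spi1, which encodes the progenitor and myeloid factor PU.1, was 119.8 and 121.8 CPM against 88.8 and 76.6 CPM, a difference of 0.60 ± 0.13 (edgeR adjusted p = 0.0023). Lst1, a leukocyte transcript of the major histocompatibility region, was 164.9 and 135.5 CPM against 103.5 and 91.2 CPM, and rose by 0.61 ± 0.12 (edgeR adjusted p = 0.000661). In each of these genes both member values lay above both adaptor-0 values. The other named rises were Bex6, Mndal, Tifa, Trf, Ffar2, Unc93b1, Mdp1 and Gtf3c6, with differences of 0.64 to 0.78. Mndal is an interferon-inducible gene, Unc93b1 escorts nucleic acid-sensing Toll-like receptors, Ffar2 encodes a receptor for short-chain fatty acids, and Trf encodes transferrin. Gtf3c6 rose by 0.70 in the fit, but its levels were 51.2 and 49 CPM against 46.5 and 23.7 CPM, so that library 1 gave little of the difference. Several of these differences turned with the choice of cells. The same stage was also chosen by Fcer1g alone, against Fcer1g-free cells. The latter held Tyrobp at 506 and 520 CPM and are not the adaptor-0 cells. There the differences of Mpo, Bex6, Mndal, Unc93b1 and Gtf3c6 were -0.27, -0.020, -0.080, -0.35 and -0.020, and did not pass in edgeR. Those of Cd7 and Ffar2 were -0.32 and -0.40 and did pass. Those of Spi1, Lst1, Mdp1, Tifa and Trf kept their sign, at 0.077, 0.15, 0.099, 0.28 and 0.31, and did not pass. None of the named rises thus passed as a rise by Fcer1g alone.

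Of the 12 named falls, 9 were histone genes or genes of mitotic chromosomes and kinetochores. Hist1h4i was 54.9 and 48.3 CPM in members and 116.2 and 103.96 CPM in adaptor-0 cells, a difference of -1.09 ± 0.13 (edgeR adjusted p = 8.9e-09). The further histone genes Hist1h2ap, Hist1h2bc and Hist1h1b differed by -1.04, -1.01 and -0.94. Mki67, Nusap1, Smc2, Cenph and Apitd1, which act on mitotic chromosomes and kinetochores, differed by -0.75 to -0.65. Lgals1, which encodes galectin-1, was 256 and 205.9 CPM against 382 and 343 CPM, a difference of -0.66 ± 0.08 (edgeR adjusted p = 3.06e-08). Fam169b was 17.5 and 15.8 CPM against 33.8 and 28.3 CPM, and fell by 0.85 (edgeR adjusted p = 0.0473). Thy1, a surface protein of later thymocytes, was 23.8 and 22.3 CPM in members and 23.2 and 71.1 CPM in adaptor-0 cells. Its fitted difference was -1.28 (edgeR adjusted p = 0.000101), although the levels in library 1 were nearly equal and slightly higher in members. By Fcer1g alone, Hist1h2bc, Lgals1, Fam169b and Thy1 turned to 0.30, 0.19, 1.204 and 0.81. Hist1h4i, Hist1h2ap and Hist1h1b gave -0.083, -0.14 and -0.31 there and did not pass in edgeR. Mki67, Smc2, Cenph and Apitd1 gave -0.12, -0.054, -0.12 and -0.18 and did not pass either, whereas Nusap1 passed at -0.40.

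**Figure D2:**
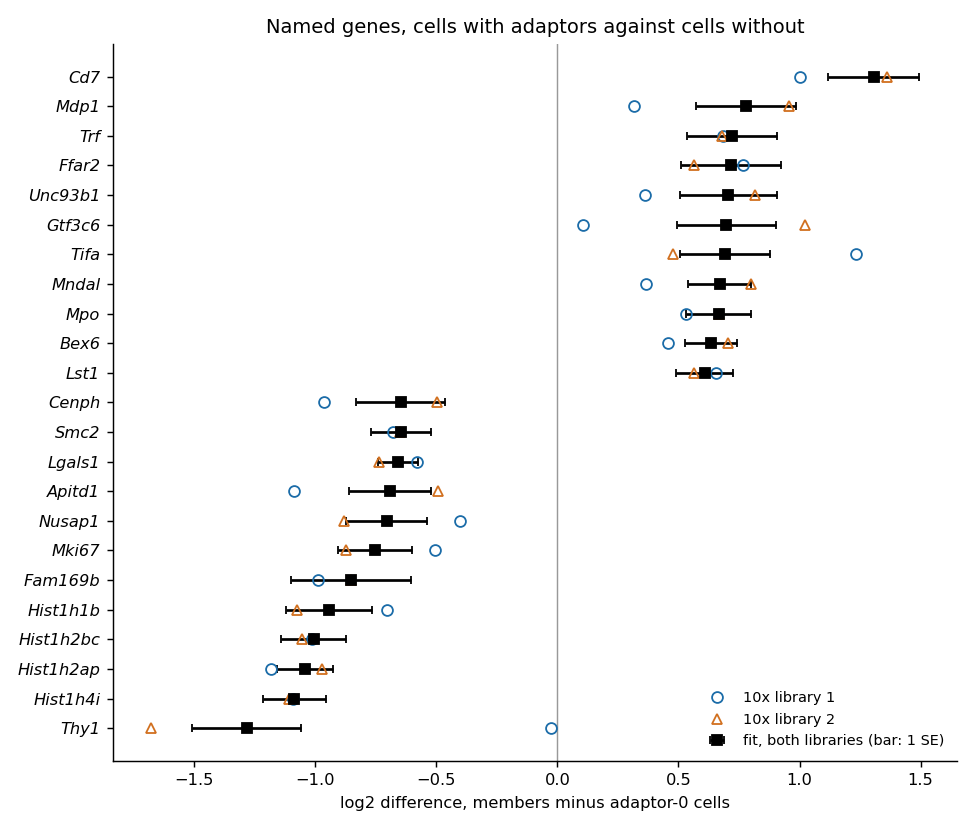
Differences of members minus adaptor-0 cells (log2 scale) for the named genes, with 1 point per library and the fitted value with ± 1 SE. The histone genes and Lgals1 lie near the same value in both libraries, whereas Thy1 lies near 0 in library 1 and at -1.68 in library 2.

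The receptors that could use the adaptors were mostly too low to test. Of 59 listed receptors, other adaptors and kinases of this pathway, 19 had enough UMIs, 1 rose and 1 fell, beside 1.07% higher and 1.38% lower of all genes tested, with a median difference of 0.24 against -0.00 over all genes tested. Cd160, a receptor gene of natural killer and T cells, rose from 25.4 and 21.9 CPM in adaptor-0 cells to 41.7 and 42.9 CPM in members (0.88 ± 0.23, edgeR adjusted p = 0.0214), and differed by -0.26 by Fcer1g alone. Lat, the adaptor that links Zap70 or Syk to downstream signalling, fell from 194.4 and 155.03 CPM to 120.5 and 127.7 CPM (-0.40 ± 0.11, edgeR adjusted p = 0.0293), and differed by 0.55 by Fcer1g alone. Several partners were present in members without a call. Hcst, which encodes the related adaptor DAP10, stood at 44.1 and 39.8 CPM. The kinase genes Syk, Lyn and Lck stood at 44.8 and 52, 31.2 and 31.1, and 340 and 403 CPM. The lectin receptor genes Clec4d and Clec4e stood at 30.5 and 31.5, and 28.4 and 35.9 CPM. After thinning, Clec4d was detected in 11.9% and 11.6% of members against 1.85% and 10.4% of adaptor-0 cells, and Clec4e in 10.6% and 13.2% against 3.70% and 6.67%. Trem2, a myeloid receptor gene that pairs with DAP12, had 0 UMIs in members.

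Among lists of developmental genes, few members of any list passed the test, beside 1.07% higher and 1.38% lower of all genes. Of 16 tested progenitor regulators, 1 rose, namely Spi1, with a median difference of 0.14. Of 16 tested T-lineage regulators, 1 rose, namely Runx3, at 146.8 and 138.5 CPM against 111.996 and 102.1 CPM (0.42 ± 0.11, edgeR adjusted p = 0.0314). Of 15 surface and cytokine receptor genes, 1 rose, namely Kit, at 119.3 and 132.2 CPM against 111.996 and 85.7 CPM (0.46 ± 0.12, edgeR adjusted p = 0.0249), where the library 1 levels lie close together and the difference by Fcer1g alone was -0.015. Of 7 genes of T-cell receptor signalling, 2 fell, Lat and Thy1. Among 6 chemokine and cytotoxic genes besides the markers, Cd7 and Srgn rose. Srgn encodes the granule proteoglycan serglycin and stood at 643 and 527 CPM against 509 and 475 CPM. None of the 7 interferon-stimulated genes tested or the 3 dissociation genes tested passed in edgeR, with medians of 0.41 and 0.11. Of 16 genes listed because they were high in reporter-negative DN2a bulk RNA of the same study, 2 rose, Cd7 and Mpo. That list was chosen on these samples and is not independent evidence of direction.

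Markers of other cell types moved with the same comparison in some lists. The summed level of 18 granulocyte markers was 259 and 196.7 CPM in members and 160.6 and 130.4 CPM in adaptor-0 cells, with 7 and 9 of the 18 at 0 in members. Of 5 tested, Mpo rose, beside 1.07% higher of all genes tested. The sums for mast cell and basophil markers were 212.3 and 188.7 against 230 and 217.95 CPM, those for natural killer and innate lymphoid markers 266 and 288 against 266 and 283 CPM, and those for dendritic cell and macrophage markers 268 and 251 against 251 and 217.95 CPM. Cox6a2 rose from 6.34 and 4.56 CPM to 17.3 and 21 CPM (1.91 ± 0.46, edgeR adjusted p = 0.0093), while Siglech, also of plasmacytoid dendritic cells, had 0 UMIs. Hbb-bt, a haemoglobin gene, rose from 691 and 495 CPM to 1055 and 659 CPM (0.50 ± 0.09, edgeR adjusted p = 6.81e-05). With the cells holding 3 or more other-lineage UMIs left out, the 36 non-marker genes named in this comparison kept their direction and their call. The part of free haemoglobin RNA or of other cells in the remaining differences was not tested.

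The G2/M genes were lower in members as a group. Of 23 tested, 7 fell and none rose, beside 1.07% higher and 1.38% lower of all genes tested. The median difference was -0.62, against -0.00 over all genes tested. Top2a went from 378 and 296 CPM in adaptor-0 cells to 233 and 198.2 CPM in members (-0.62 ± 0.08, edgeR adjusted p = 1.29e-07). By Fcer1g alone, Top2a, Mki67 and Birc5 gave -0.17, -0.12 and -0.025 and did not pass in edgeR. Nusap1 gave -0.40 there and did pass. By Tyrobp alone, Top2a, Mki67, Birc5 and Nusap1 gave -0.62, -0.85, -0.78 and -0.76, and all passed. Of 24 S-phase genes, 3 fell, beside the same shares of all genes, with a median of -0.25. These were Tipin, Dut and Rrm2, and Rrm2 fell only in the fit and in library 2, with 58 against 54.9 CPM in library 1. At equal depth, 18% (15.9 to 20.2) and 17.5% (15.6 to 19.5) of members held at least 5 UMIs of G2/M genes. In adaptor-0 cells these shares were 31.5% (19.5 to 45.6) and 34.8% (26.8 to 43.5). The intervals (exact binomial) overlap in library 1, where 54 adaptor-0 cells remained after thinning, and do not overlap in library 2. Cells without Il2ra showed the same order, with 14.4% and 14.3% of adaptor-positive against 34.3% and 31.5% of adaptor-0 cells. Bcl11b-positive cells gave 22.6% and 18.9% against 25.6% and 22.4%. The S-phase shares of members were 63.5% and 62.6%, against 75.9% and 74.1% of adaptor-0 cells.

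**Figure D3:**
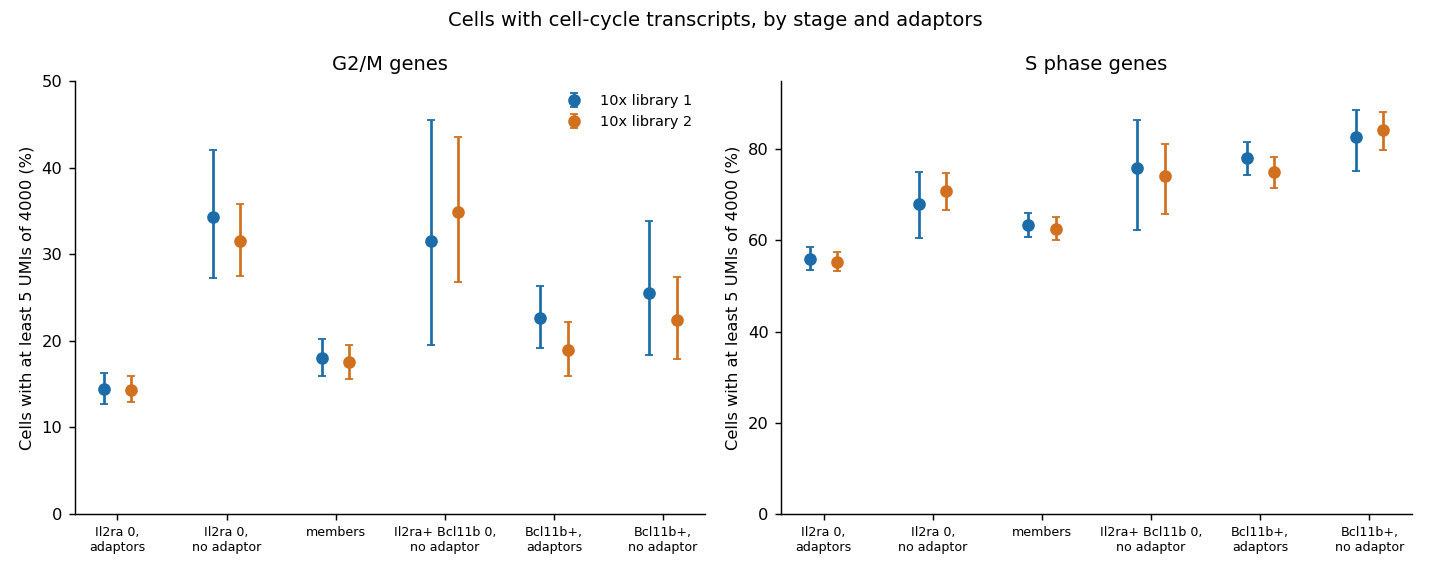
Share of cells with at least 5 UMIs of G2/M genes or of S-phase genes among 4000 UMIs, for cells with and without adaptor UMIs at 3 stages, with exact binomial 95% intervals and 1 point per library. Members lie at 18% and 17.5% for G2/M, below the 31.5% and 34.8% of adaptor-0 cells.

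Division and adaptor RNA were also linked within the members, which is again a description because adaptor UMIs chose the cells. Members with at least 5 G2/M UMIs held Tyrobp at 345 and 356 CPM, against 635 and 665 CPM in the other members. Ccl5 was 19.5 and 46.1 CPM in the former and 93.1 and 124.2 CPM in the latter, and Cd7 was 32.7 and 35.2 against 91.7 and 81.4 CPM. Fgf3 lay close in both, at 70.9 and 82.5 against 70.4 and 84.7 CPM. The members with G2/M UMIs were also deeper, with medians of 12629 and 9090 against 7918 and 6453 UMIs. The part of depth and of division in the difference between members and adaptor-0 cells was not tested separately.

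Choosing the same stage by each adaptor alone gave different genes. Cells with at least 2 Fcer1g UMIs (338 and 383) were compared with cells without Fcer1g (716 and 1151), and cells with at least 2 Tyrobp UMIs (1203 and 1476) with cells without Tyrobp (100 and 273). The levels of each adaptor in the choice by the other are a description. Tyrobp was 496 and 534 CPM in the Fcer1g-rich cells and 506 and 520 CPM in the Fcer1g-free cells, so it lay close in both. Fcer1g was 105.2 and 111.8 CPM in the Tyrobp-rich cells and 109.2 and 86.3 CPM in the Tyrobp-free cells, higher with Tyrobp in library 2 and not in library 1. In thinned members, Tyrobp was detected in 85.8% and 83.2% of those with Fcer1g and in 84.7% and 88.7% of those without, although the rule itself raises Tyrobp among members that lack Fcer1g.

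Thy1 was 36.6 and 35.7 CPM in Fcer1g-rich and 16.4 and 24.7 CPM in Fcer1g-free cells (0.81, edgeR adjusted p = 4.76e-05). By Tyrobp it ran the other way, with 20.6 and 18.2 CPM in rich and 48.1 and 66.7 CPM in free cells (-1.62, edgeR adjusted p = 1.04e-10). Fam169b was 31.3 and 25.6 against 11.1 and 13.8 CPM by Fcer1g (1.204, edgeR adjusted p = 3.92e-08). By Tyrobp, Fam169b was 14.7 and 13 against 49.2 and 32.8 CPM (-1.47, edgeR adjusted p = 8.3e-08). Lat was 154.8 and 165.5 against 101.4 and 119.03 CPM by Fcer1g (0.55, edgeR adjusted p = 2.4e-09), and 116.2 and 116.3 against 202.1 and 175.3 CPM by Tyrobp (-0.64, edgeR adjusted p = 7.3e-08). Each of these genes was higher with Fcer1g and lower with Tyrobp in both libraries.

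Cd7 had the opposite pattern. It was 61.7 and 58.5 against 80 and 73.5 CPM by Fcer1g (-0.32, edgeR adjusted p = 0.028), and 81.6 and 82.9 against 47 and 29.7 CPM by Tyrobp (1.26, edgeR adjusted p = 3.5e-09). Ffar2 likewise fell by 0.40 by Fcer1g (edgeR adjusted p = 0.0103) and rose by 0.68 by Tyrobp (edgeR adjusted p = 0.0028). Fgf3, described only, was 109.7 and 122.8 against 48.1 and 61.4 CPM by Fcer1g and 66.9 and 77.7 against 84.1 and 92.7 CPM by Tyrobp. Ccl5 was higher in both choices, with 74.3 and 143.6 against 60.7 and 85.4 CPM by Fcer1g and 80.2 and 127.5 against 21.8 and 37.1 CPM by Tyrobp. The cells of both choices overlap, so the difference between the choices was not tested. Cells rich in Tyrobp make up most members, and the comparison of members with adaptor-0 cells followed the Tyrobp choice in the direction of all these genes but Fgf3.

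**Figure D4:**
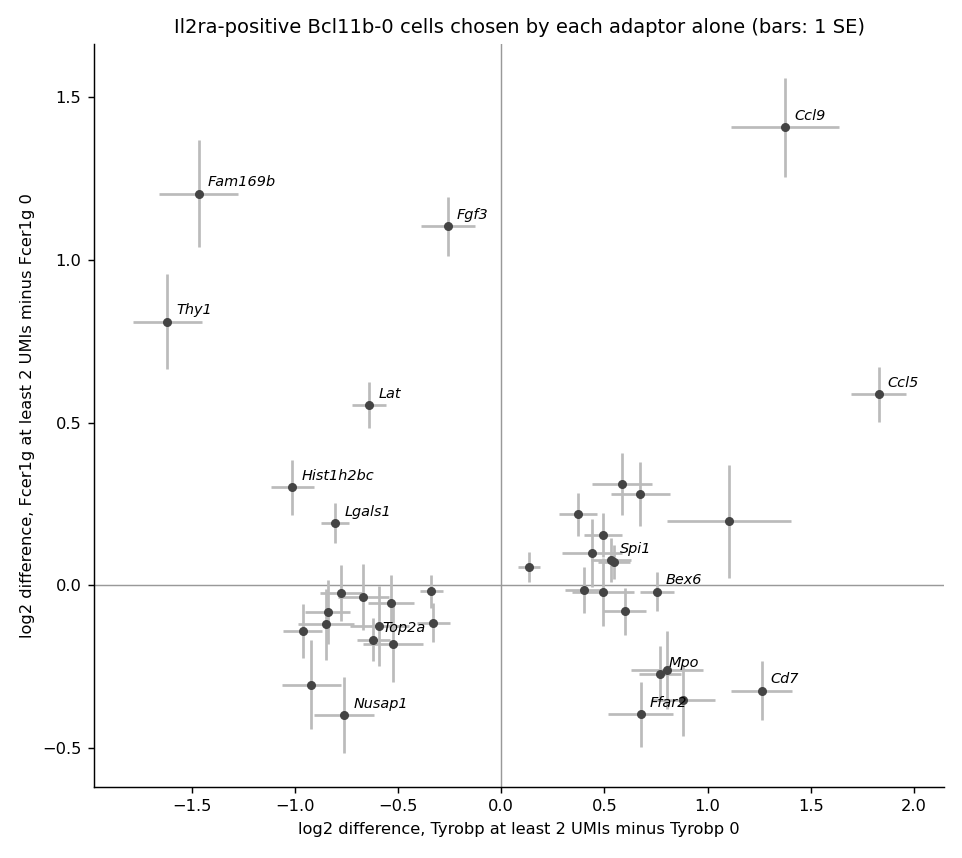
Differences on the log2 scale for the named genes when Il2ra-positive cells without Bcl11b are chosen by Tyrobp alone (horizontal axis) or by Fcer1g alone (vertical axis), with bars of 1 SE. Thy1, Fam169b and Lat lie at the upper left and Cd7 and Ffar2 at the lower right.

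Compared with adaptor-positive cells without Il2ra UMIs, members held less RNA of many progenitor genes. Since members were chosen by Il2ra, that gene is not a finding. Of 7121 genes, 1994 were called (28%), 975 higher (13.7%) and 1019 lower (14.3%) in members. The share was 15.3% and 13.8% without the members of library 1 or 2, 17.1% without the Il2ra-free cells of library 2, 13.1% with thinned cells and 3.9% without the library block. Fam169b was 17.5 and 15.8 CPM in members and 1.45 and 2.62 CPM in cells without Il2ra (2.93 ± 0.17, edgeR adjusted p = 4.9e-23). Ly6d, a surface protein gene of lymphoid progenitors, was 265 and 313 against 68.5 and 105.4 CPM (1.67 ± 0.08, edgeR adjusted p = 3.74e-28). Il7r, Anxa2, Fut8 and Drosha rose by 0.93 to 1.23. Flt3, the cytokine receptor gene of the earliest progenitors, was 4.19 and 4.85 CPM in members against 28.1 and 26.7 CPM (-2.66 ± 0.13, edgeR adjusted p = 6.13e-27). Lmo2, a progenitor transcription cofactor gene, was 28.8 and 26.9 against 89.1 and 83.7 CPM (-1.69 ± 0.06, edgeR adjusted p = 7.39e-32). Cd34 and Egfl7 differed by -1.21 and -1.42. All these genes separated members from cells without Il2ra in both libraries.

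By list, 11 of 16 tested progenitor regulators fell in this comparison and 3 rose, beside 13.7% higher and 14.3% lower of all genes, with a median of -0.29 against 0.01 over all genes. Of 16 T-lineage regulators 8 rose, among them Tcf7 at 216.9 and 246 against 119.5 and 140.4 CPM (0.78 ± 0.04, edgeR adjusted p = 7.06e-24), and 3 fell. All 5 tested granulocyte markers fell. Mpo was 135.7 and 125.1 against 205.7 and 222.3 CPM, a difference of -0.77. Prtn3, a neutrophil protease gene, was 29.6 and 3.98 against 102.7 and 77.5 CPM, so its member level differed between the libraries. The Elane UMIs of library 1 came from 0.543% of the members. The chemokine and cytotoxic list had 4 falls among 6 tested genes, Nkg7, Cd7, Lag3 and Serpinb6b. Cd7 was therefore lower in members than in cells without Il2ra, at 78.2 and 78.4 against 111.7 and 132.4 CPM (-0.70 ± 0.05, edgeR adjusted p = 3.01e-18). Of 19 tested adaptor receptors and kinases, Cd247, Syk, Lck, Plcg2, Lat, Lcp2 and Cd160 rose, and Hcst, Clec4e and Cd33 fell. Of 24 S-phase genes 17 rose. Median depths were 8513.5 and 6588 UMIs in members and 8035 and 5584 UMIs in cells without Il2ra.

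Compared with Bcl11b-positive cells that also had adaptor RNA, members held more RNA of many progenitor genes. Here 1126 of 7121 genes were called (15.8%), 564 higher (7.92%) and 562 lower (7.89%) in members. The share was 8.4% and 9.59% without the members of library 1 or 2 and 8.01% without the Bcl11b-positive cells of library 1. It was 3.46% with cells thinned to equal depth and 2.85% without the library block, and the Bcl11b-positive cells were the deeper ones. Mpo was 135.7 and 125.1 CPM in members against 34.2 and 38.7 CPM (1.87 ± 0.08, edgeR adjusted p = 2.47e-29). Cd7 was 78.2 and 78.4 against 26.4 and 34.6 CPM (1.39 ± 0.09, edgeR adjusted p = 4.53e-21). Spi1 was 119.8 and 121.8 against 69.6 and 69.5 CPM (0.82 ± 0.06, edgeR adjusted p = 4.46e-17). Lmo2, Evl, Car2, Serpina3g, Slco3a1 and Mef2c differed by 1.16 to 1.80. Thy1 was 23.8 and 22.3 against 87.8 and 75.8 CPM (-1.80 ± 0.10, edgeR adjusted p = 6.73e-23), and Il7r was 38.8 and 44.8 against 106.5 and 99.8 CPM. Fam169b, Ly6d, Bcl2, Anxa2, Fyb and Rgcc also fell, by 0.94 to 2.17. In both libraries these genes had separate levels in members and Bcl11b-positive cells.

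Of the progenitor regulators, 11 of 16 rose and none fell, beside 7.92% higher and 7.89% lower of all genes, with a median of 0.66 against 0.00 over all genes. Of T-lineage regulators 6 fell, among them Ets1 and Gata3 by 0.95 and 0.47, and Runx3 rose. Of 7 tested genes of T-cell receptor signalling 5 fell, with Skap1 at 10.5 and 7.19 against 39.5 and 33.8 CPM. Members thus had lower Lat, Lck, Cd247 and Plcg1, which serve the T-cell receptor, and higher Lyn, Lat2, Plcg2, Clec4d, Cd33 and Cd160 within the list of adaptor receptors and kinases. Lat2, which encodes a relative of Lat used in myeloid and B cells, stood at 142.1 and 153.7 CPM in members. Of 24 S-phase genes 18 fell and none rose, and of 23 G2/M genes 9 fell. The median depths of these Bcl11b-positive cells were 10055 and 7844 UMIs.

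The difference that goes with adaptor RNA was also tested between stages. Its change from cells without Il2ra to Il2ra-positive cells passed for 19 genes (0.267%), 5 of them positive (0.0702%) and 14 negative (0.197%). The change between Bcl11b-positive and Bcl11b-negative Il2ra-positive cells passed for 23 (0.323%), 7 of them positive (0.0983%) and 16 negative (0.225%). Mpo was 34.2 and 38.7 CPM in Bcl11b-positive cells with adaptors and 3.14 and 8.93 CPM in those without, so its difference there was larger than between members and adaptor-0 cells (interaction -1.74 ± 0.32, edgeR adjusted p = 0.000552). Lgals1 was 385 and 318 against 866 and 864 CPM in Bcl11b-positive cells, again a larger difference than at the members' stage (0.66 ± 0.09, edgeR adjusted p = 5.59e-06). For Hist1h4i the Bcl11b-positive levels lay close together, at 62.6 and 57.2 against 62 and 62.1 CPM (interaction -1.02 ± 0.17, edgeR adjusted p = 7.9e-05). Cd7 passed neither interaction test.

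The genes that varied most among members included some found in nearly every cell and some found in a minority. After thinning, the highest ratios of variance to mean were those of Hbb-bt (22.7), Actb (19.4), Malat1 (15.8), Ly6d (6.14) and Ccl5 (4.55), against a median of 1.04 over 2365 genes. Next came Crip1, Hmgb2, H2afz, Ifitm1 and Plac8, with 3.67 to 4.20. Hbb-bt was found in 38% and 32.4% of members, with up to 76 and 99 UMIs in a cell. Ccl5 was found in 18.1% and 21.7%, with up to 20 and 19 UMIs. Ccl9 was found more often in members with Ccl5 than in members without it, although most members with either gene lacked the other. Ccl9 was detected in 17% and 12.9% of members with Ccl5 and in 5.58% and 5.20% of members without it. Fgf3 was detected in 25.2% and 25.2% of members with Ccl5 and in 21% and 23.8% of those without. In members with Mpo, Fgf3 was detected in 16% and 21%, against 24.6% and 25.8% without Mpo.

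The level of Il2ra ordered part of this variation. Members with 1, with 2 to 3 and with at least 4 Il2ra UMIs had Fgf3 at 41.4, 66.5 and 100.2 CPM in library 1 and at 51.8, 91.8 and 114.3 CPM in library 2. Ly6d was 174.4, 238 and 373 CPM in library 1 and 175.6, 349 and 456 CPM in library 2. Mpo ran down, at 203.4, 125.7 and 82.6 CPM in library 1 and 166.2, 112.96 and 83.8 CPM in library 2. Fgf3 and Ly6d were thus highest, and Mpo lowest, where Il2ra was highest. Cd7 was 105.8, 85.2 and 46.2 CPM in library 1 and 103.4, 69.2 and 56 CPM in library 2. Tyrobp was 623, 573 and 509 CPM and 688, 632 and 508 CPM, while Fcer1g was 90.8, 116.2 and 133.7 CPM and 111.1, 138.1 and 135.5 CPM. Ccl5 had no common order, with 72, 96.5 and 60.5 CPM in library 1 and 128.6, 121.2 and 97 CPM in library 2. Depth rose over the same cells, from medians of 7641 and 5888 to 9924 and 8044 UMIs, and its part was not tested.

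The sorted bulk populations give the adaptors in other mice and with another method. The nearest population to the members is Bcl11b- DN2a, which holds all CD25+ reporter-negative cells whatever their adaptor RNA. In bulk RNA, fewer cells of a type and less RNA per cell cannot be told apart. Libraries were made with 2 kits, and all values are FPKM (fragments per kilobase, scaled to library size), tested in limma on log2(FPKM + 1) with population and kit as terms. Tyrobp was 102.5 and 116.1 FPKM in Flt3+ ETP, 104.1 and 94.4 in total ETP, 190.2 and 271 in Flt3- ETP, 168.98, 223.7 and 118.6 in Bcl11b- DN2a, and 43.5, 62.2 and 23.4 in Bcl11b+ DN2a. The Bcl11b+ DN2a libraries lay below all others. Tyrobp did not pass between Bcl11b- DN2a and Flt3- ETP (-0.36 ± 0.25, limma adjusted p = 0.359) and fell by 2.02 ± 0.22 in Bcl11b+ DN2a (limma adjusted p = 0.00069).

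Fcer1g was 6.16 and 14.7 FPKM in Flt3+ ETP, 10.6 and 12.1 in total ETP, 13.9 and 48.3 in Flt3- ETP, 29, 93.7 and 27.4 in Bcl11b- DN2a, and 18, 69.3 and 17.6 in Bcl11b+ DN2a. Its levels overlapped between neighbours, and the amplified SMART-Seq v4 libraries read higher. Fcer1g rose by 0.95 ± 0.17 from Flt3- ETP to Bcl11b- DN2a (limma adjusted p = 0.00918). Its difference of -0.57 ± 0.15 between Bcl11b+ and Bcl11b- DN2a did not pass (limma adjusted p = 0.0795), but passed with the replicate number as a block in the DN2a libraries (limma adjusted p = 0.00208), a fit added after seeing the data. No label ties equal numbers to a shared animal. The Tyrobp to Fcer1g ratio of FPKM was 13.7 and 5.60 in Flt3- ETP, 5.83, 2.39 and 4.33 in Bcl11b- DN2a, and 2.42, 0.897 and 1.33 in Bcl11b+ DN2a. The ratio was lower in the Bcl11b+ library of each of the 3 same-numbered pairs. An exact two-sided permutation test that ignores these pairs gave p = 0.2, and 3 against 3 libraries cannot go below 0.1 in such a test.

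**Figure D5:**
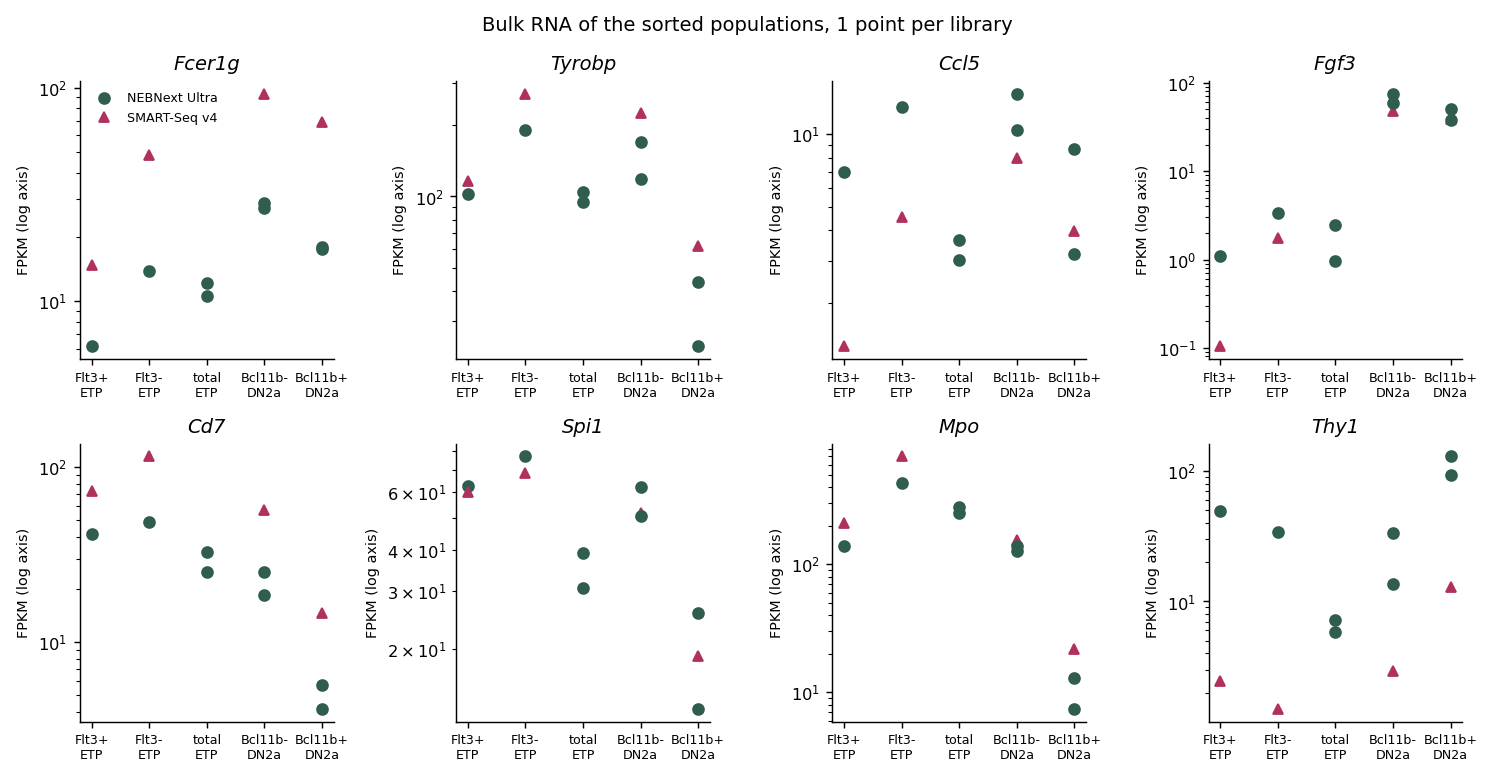
FPKM (log axis) of 8 genes in the 12 bulk libraries by sorted population, with the library kit shown by the marker. Tyrobp, Cd7 and Mpo are lower in all 3 Bcl11b+ DN2a libraries than in the 3 Bcl11b- DN2a libraries, while Fgf3 is high in both DN2a populations.

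Of 12112 genes tested in bulk, 481 (3.97%) were called between Bcl11b- DN2a and Flt3- ETP, 1.62% of genes being higher and 2.35% lower, and 338 (2.79%) between both DN2a populations, 1.15% higher and 1.64% lower in Bcl11b+ DN2a. Without the kit term only 35 and 4 genes were called. The first share ran from 1.35% without Flt3- ETP replicate 1 to 21.1% without Flt3- ETP replicate 2, and was 2.23% and 2.27% without replicates 1 and 3 of Bcl11b- DN2a. The second was 1.33% to 2.11% with a library left out, with the lowest values without replicate 1 (1.33%), 2 (1.61%) or 3 (1.63%) of Bcl11b- DN2a and replicate 3 of Bcl11b+ DN2a (1.55%). Fgf3 was 3.39 and 1.75 FPKM in Flt3- ETP, 75.2, 47.8 and 59.7 in Bcl11b- DN2a, and 50, 38.5 and 37.5 in Bcl11b+ DN2a. It rose by 4.05 ± 0.25 at the first step (limma adjusted p = 6.15e-06). Ccl5 was 13 and 4.55, then 14.7, 7.99 and 10.4, then 8.69, 3.96 and 3.18 FPKM, and passed neither test (limma adjusted p = 0.661 and 0.18). Ccl9 was 3.72 and 8.56, then 2.27, 2.36 and 2.77, then 1.12, 0.805 and 1.12 FPKM, and passed neither test (limma adjusted p = 0.063 and 0.114). With the replicate block in the DN2a libraries, Ccl5, Ccl9 and Fgf3 were lower in Bcl11b+ DN2a (limma adjusted p = 0.00433, 0.00315 and 0.0057).

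Among genes named in the droplet data, Cd7 was 48.6 and 114.6 FPKM in Flt3- ETP, 25.2, 56.4 and 18.7 in Bcl11b- DN2a, and 5.68, 14.7 and 4.16 in Bcl11b+ DN2a, with differences of -1.09 and then -1.93 (limma adjusted p = 0.0104 and 2.0e-04). Mpo was 435 and 699, then 127.2, 153.98 and 138.1, then 12.9, 21.8 and 7.4 FPKM, with differences of -1.87 and -3.34 (limma adjusted p = 9.8e-04 and 1.8e-05). Ffar2, Lst1, Bex6 and Trf were lower in Bcl11b+ than in Bcl11b- DN2a, with differences of -1.72, -1.04, -1.22 and -0.58. Lgals1, Thy1 and Fam169b were higher there, by 1.81, 2.14 and 2.09. The listed adaptor receptors and kinases had 3 rises and 9 falls among 33 tested between the DN2a populations, with a median of -0.31. Progenitor regulators had 10 falls among 21 and no rise. Of all genes, 1.15% were higher and 1.64% lower in this comparison. All 12 tested granulocyte markers fell from Flt3- ETP to Bcl11b- DN2a, beside 2.35% lower of all genes, with a median of -2.82. No median over all genes was taken in bulk.

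The C1 cells give full-length coverage at 1 sample and no test. Among cells with at least 1000 genes above 1 FPKM, 94 had Il2ra above 1 FPKM and Bcl11b at or below it. Tyrobp exceeded 1 FPKM in 90 of these, Fcer1g in 70 and both in 67, which leaves 1 cell without either. Of the 93 with an adaptor, Ccl5 was detected in 27 (29%), Ccl9 in 12 (12.9%), Fgf3 in 35 (37.6%), Cd7 in 52, Spi1 in 82 and Mpo in 85. In 29 C1 cells with both Il2ra and Bcl11b above 1 FPKM, Fgf3 was detected in 51.7% and Fcer1g in 79.3%. Ccl5 was detected in 20.7% of them and Ccl9 in 0%. In 98 C1 cells with neither above 1 FPKM, these shares were 4.08%, 51%, 7.14% and 10.2%. Tyrobp exceeded 1 FPKM in 79.3% of the 29 cells and in 90.8% of the 98 cells. Fgf3, Fcer1g, Tyrobp, Ccl5 and Ccl9 were thus not particular to the 93 cells, although Ccl9 was shared only with the 98 cells. Median levels over the 93 were 251 FPKM for Tyrobp, 56.5 FPKM for Fcer1g and 160.1 FPKM for Mpo.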

How the data were processed

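Per the submitters' processing notes, the 10x UMI counts were made with Cell Ranger 2.0 on mm10, and the bulk and C1 FPKM values with STAR 2.4.0, RSEM 1.2.25 and HOMER. The deposited 10x values are raw counts, and both FPKM tables were normalized by the authors. From the counts, cells were filtered and summed as the report says. Genes with a mean of at least 10 CPM over the 12 sums were tested (7121 of 27998) in edgeR 4.0.16 (R 4.3.3, TMM, quasi-likelihood, library block, Benjamini-Hochberg adjustment). The Cd3 limit was applied to the adaptor-0 cells too, so that the Cd3 genes do not separate the groups. The sums share 2 libraries, and the deviations of sums of a library correlated by 0.101 to 0.675. The library is therefore a block. No doublet caller was used. An alternative leaves out the 5% of cells with the most UMIs.

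Bulk FPKM were tested in limma 3.58.1 with a variance trend, for genes above 1 FPKM in at least 2 of 12 libraries (12112 of 24506). Deviations of same-numbered DN2a libraries correlated by 0.912 to 0.98. These deviations held no kit term, and the SMART-Seq v4 library carries the same number in both populations. A shared kit was therefore not separated from pairing, and the correlations do not show that the numbers pair the libraries. Between Bcl11b- DN2a and Flt3- ETP the correlation was 0.892 for number 1 and -0.639 for number 2, where the kits differ. The SMART-Seq v4 columns were assigned to samples by population and number. Genes were named by rule: the 12 largest rises and falls against adaptor-0 cells (8 in the other comparisons) among called genes with at least 40 CPM and one sign in both libraries (with 0.5 added to each count, through which Thy1 entered), leaving out the rule genes, unnamed models, mitochondrial and ribosomal genes; up to 4 examples per list by adjusted p; and the 10 most variable genes. Genes of the adaptor list and genes whose pattern differed by adaptor were also named. Markers and rule genes carry no test in the 10x data. Members, lists and tests were chosen with earlier results of these data known. On simulated counts, the edgeR step over 7121 genes recovered 76% of changes of 1 and 94% of changes of 2 on the log2 scale against adaptor-0 cells. The limma step over 12112 genes recovered 62.5% and 96% for Bcl11b- DN2a against Flt3- ETP. Of the calls, 3.18% and 5.05% were false in edgeR, and 4.58% and 4.48% in limma. Both simulations drew independent values around a single mean per gene, without differences between stages, populations, libraries or kits besides the added changes. Recovery with correlated sums like the real ones was not measured. DESeq2 1.42.0 served as an alternative. Python 3.11.15, numpy 2.4.6, scipy 1.17.1, pandas 2.3.3 and matplotlib 3.10.9 were used.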

Additional observations from a re-analysis of the deposited data

Results flagged for a closer look

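In 7 named genes the difference that goes with adaptor RNA differed between stages by an interaction test in edgeR (Benjamini-Hochberg adjusted). Against cells without Il2ra, the value for Hbb-bt was -1.19 ± 0.14 (edgeR adjusted p = 2.39e-08). Hbb-bt was 1055 and 659 CPM in members and 691 and 495 CPM in adaptor-0 cells, but 336 and 231 against 82.3 and 80.7 CPM in cells without Il2ra. Lgals1 gave -0.51 (edgeR adjusted p = 0.00225), and Mndal gave 0.73 (edgeR adjusted p = 0.00502), with Mndal at 127.6 and 137.5 against 145.5 and 137.03 CPM in cells without Il2ra. Against Bcl11b-positive cells, Hist1h2ap gave -0.87 (edgeR adjusted p = 8.22e-05), Hist1h2bc -1.12 (edgeR adjusted p = 6.02e-05) and Hist1h4i -1.02 (edgeR adjusted p = 7.9e-05). Hist1h2bc was 63.5 and 78.8 against 47.9 and 77 CPM in Bcl11b-positive cells. Lgals1 gave 0.66 (edgeR adjusted p = 5.59e-06) and Mpo -1.74 (edgeR adjusted p = 0.000552).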

How the results depend on the processing

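The small number of adaptor-0 cells, 2 libraries and UMI thresholds that miss RNA in shallow cells limit the comparison with adaptor-0 cells. Values are percent of genes called among those tested, with edgeR unless another tool is named. Against adaptor-0 cells (2.44%) they became 1.21% in DESeq2, 0.907% without the filter on low counts, 0.0281% without the replicate block, 10.1% without a Cd3 limit in adaptor-0 cells, 5.03% at 4 or more adaptor UMIs, 6.54% by Tyrobp alone and 13.1% with thinned cells, and 0.295% to 2.21% with a sum left out. The share of these calls that were higher in members was 43.7%, and 60.5% without the filter and 56.2% by Fcer1g alone. Against cells without Il2ra the values were 10.9% in DESeq2, 15.5% without the filter, 3.9% without the replicate block, 10.1% by Fcer1g alone, 13.1% with thinned cells and 13.8% to 19.2% with a sum left out. Against Bcl11b-positive cells they were 6.68%, 7.74%, 2.85%, 4.59%, 3.46% and 8.01% to 10.7%, and 10.2% at 4 or more adaptor UMIs. The interaction with cells without Il2ra gave 0.14% in DESeq2, 0.136% without the filter, 1.35% without the Cd3 limit, 0.801% by Fcer1g alone and 0.14% to 0.252% with a sum left out. That with Bcl11b-positive cells gave 0.211%, 0.21%, 1.86%, 0.899% and 0.197% to 0.574%, with 0.59% at 4 or more adaptor UMIs, 0.52% by Tyrobp alone and 0.21% without the cells with the most UMIs. Without the replicate block both interactions gave 0 calls in edgeR, with 232 and 334 genes at an unadjusted p under 0.05.

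For Bcl11b- DN2a against Flt3- ETP, limma called 1.88% without the filter, 0.289% without the kit term, 1.22% with a replicate block in its place, and 1.35% to 21.1% with a library left out. For the DN2a populations it called 0.981%, 0.033%, 0.198% and 1.33% to 2.11%, and 15.2% with the replicate block in the DN2a libraries only.

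The choice by Fcer1g alone compared cells with Fcer1g-free cells, which held Tyrobp at 506 and 520 CPM, and not with adaptor-0 cells. Its differences had the opposite sign to those from adaptor-0 cells for Bex6 (-0.020), Cd160 (-0.26), Cd7 (-0.32), Fam169b (1.204), Ffar2 (-0.40), Gtf3c6 (-0.020), Hist1h2bc (0.30), Kit (-0.015), Lat (0.55), Lgals1 (0.19), Mndal (-0.080), Mpo (-0.27), Thy1 (0.81) and Unc93b1 (-0.35), as did the Mndal interaction with cells without Il2ra (-0.12). With a sum left out, Rrm2 ran from -0.96 to 0.12 and Thy1 from -1.64 to 0.026, both reversed without adaptor-0 replicate 2, and library 1 alone gave 0.052 for Rrm2. Against Bcl11b-positive cells Prtn3 ran from -0.52, without members replicate 1, to 2.28. Against cells without Il2ra, Jund gave -6.47e-05 with thinned cells. The cause was not tested. RLE size factors kept the direction and call of all 36 named genes of the comparison with adaptor-0 cells.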
